A study of Mus musculus with 12 samples.

Results

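The 10 cytokine genes described here were the interleukin 1 family genes Il1a, Il1b, Il1rn, Il1rl1 and Il33, the interleukin 6 family genes Il6, Il11, Osm and Lif, and Tnf. They were chosen by symbol, as the rows with these names among the 55453 genes of the count file, and all 10 were found. RNA was sequenced from the skin of 12 C57/BL6 mice, 3 in each of 4 groups: wild type with PBS (WT PBS), wild type with bleomycin (WT BLM), Thy1-knockout with PBS (KO PBS) and Thy1-knockout with bleomycin (KO BLM). Bleomycin, a DNA-damaging drug used to produce skin fibrosis, was given by daily subcutaneous injection at 10 mg/kg in 2 spots of the back for up to 14 days, PBS was the vehicle, and the skin is described as taken at day 21. The knockout mice, which lack the surface glycoprotein Thy-1 of fibroblasts and T cells, were females 8 to 12 weeks old on the C57BL/6 background, no tissue-specific driver is named for the knockout, and controls were littermates. Each mouse gave 1 library of whole skin, and no label or method names the injection series or day a mouse belonged to.

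The 3 families are the classic alarm signals of injured skin. IL-1α, IL-1β and IL-33 leave stressed or dying cells and activated phagocytes and act through receptors that recruit MYD88, IL-1 receptor antagonist (Il1rn) competes with IL-1 for its receptor, and Il1rl1 encodes ST2, the receptor of IL-33. The IL-6 family acts through the shared subunit gp130 and STAT3, and TNF acts through a pair of receptors that switch on NF-κB.

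The promoters of the members that differed most between the groups are shown first, with those of Tnf and of Il6, whose window carried the most motifs. Each line holds the 250 bases upstream of an annotated start, 5′ to 3′ on the gene's strand, from RefSeq on GRCm38.p6, and capitals mark the motif matches named after it. Il1b, the phagocyte IL-1 that needs cleavage by caspase-1, lies on the minus strand (chr2:129371140-129371389), and the capitals are a TATAAA whose first base is 31 bases before the start.
Il1b: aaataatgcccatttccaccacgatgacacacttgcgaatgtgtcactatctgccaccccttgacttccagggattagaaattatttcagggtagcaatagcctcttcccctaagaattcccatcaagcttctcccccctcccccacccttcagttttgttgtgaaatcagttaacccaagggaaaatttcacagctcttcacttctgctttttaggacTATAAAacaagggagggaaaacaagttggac
Tnf lies on the minus strand (chr17:35202008-35202257), with TATAAA at 29 bases.
Tnf: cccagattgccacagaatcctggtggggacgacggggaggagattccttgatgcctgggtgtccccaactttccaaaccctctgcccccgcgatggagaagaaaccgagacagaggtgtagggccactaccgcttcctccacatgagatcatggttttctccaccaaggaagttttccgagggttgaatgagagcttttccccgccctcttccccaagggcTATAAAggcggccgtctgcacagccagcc
Il6 lies on the plus strand (chr5:30012864-30013113), with an AP-1 match at 249 bases, a C/EBP match at 128 bases and an NF-κB match at 44 bases.
Il6: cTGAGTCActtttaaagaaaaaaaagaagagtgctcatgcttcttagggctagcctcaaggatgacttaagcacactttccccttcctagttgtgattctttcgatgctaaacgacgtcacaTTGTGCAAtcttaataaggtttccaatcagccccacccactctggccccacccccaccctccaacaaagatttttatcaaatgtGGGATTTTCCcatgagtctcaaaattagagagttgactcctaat
Il33 had a window at each of 2 starts on the plus strand. The downstream one (chr19:29945540-29945789) held a C/EBP match at 85 bases and TATAAA at 29 bases, and the upstream one, not printed, held TATAAA at 203 bases.
Il33: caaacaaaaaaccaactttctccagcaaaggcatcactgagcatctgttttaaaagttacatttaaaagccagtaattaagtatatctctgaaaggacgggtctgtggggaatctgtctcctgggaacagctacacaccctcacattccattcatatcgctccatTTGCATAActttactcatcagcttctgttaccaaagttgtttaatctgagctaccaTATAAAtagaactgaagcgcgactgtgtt
Il1rl1 also had a window at each of 2 starts on the plus strand. The upstream one (chr1:40429320-40429569) held a C/EBP match at 34 bases, and the downstream one, not printed, held no match.
Il1rl1: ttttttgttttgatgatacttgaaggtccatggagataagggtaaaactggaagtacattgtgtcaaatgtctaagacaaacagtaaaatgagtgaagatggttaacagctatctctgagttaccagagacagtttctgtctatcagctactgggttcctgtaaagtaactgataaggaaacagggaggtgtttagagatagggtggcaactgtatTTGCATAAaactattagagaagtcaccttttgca

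The motifs searched on both strands were TATAAA, the AP-1 letters TGANTCA, the C/EBP letters TTGCNNAA, the STAT letters TTCNNNGAA and the NF-κB consensus, and no matches in the lines above overlapped each other. Of 32851 windows of the same length in the RefSeq table, 12.4% held TATAAA, 6.75% the AP-1 letters, 9.56% the C/EBP letters, 7.02% the STAT letters and 3.9% the NF-κB consensus. Among 14 windows of 9 members, Il6 alone held the NF-κB consensus and none held the STAT letters. Il1a carried AP-1 and TATAAA matches at 12 and 32 bases, and Il1rn, Il11 and Lif each carried 1 AP-1 match, at 141, 98 and 228 bases. Osm had no entry in the table. A match describes letters in a window and is not a binding site.

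On GRCm38 with GENCODE M21 genes, Il1a (chr2:129299610-129309972) and Il1b (chr2:129364570-129371139) were neighbours on the minus strand with 54.6 kb between them, and Il1rn lay elsewhere on that chromosome (chr2:24336853-24351494). Osm (chr11:4236420-4241026) and Lif (chr11:4257557-4272514) were a second neighbouring pair, 16.5 kb apart on the plus strand. The others were single, Il1rl1 (chr1:40429570-40465415), Il33 (chr19:29925114-29960718) and Il6 (chr5:30013114-30019981) on the plus strand and Il11 (chr7:4772373-4782859) and Tnf (chr17:35199381-35202007) on the minus strand. Il1b was overlapped by the antisense gene Il1bos, which had 18 to 56 counts per mouse, and Il1a by Gm14023 on the other strand, with 36 to 51. Whether counting used strand is not given in the sources used here, so reads of these overlapping genes may not be separate.

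The libraries held 26473700 to 38890450 counts, with a median of 31494965. Thy1 itself was at 104 to 149.6 CPM, the counts scaled to the library total, in WT PBS, 231 to 416.2 in WT BLM, 45.64 to 96.87 in KO PBS and 84.66 to 128 in KO BLM, so reads were still assigned to the gene in the knockout mice at levels below the wild type mice of the same treatment, and the table gives no exons. The skin label was checked on epidermal genes (summed over 8 genes, at least 8894 CPM in every mouse) and fibroblast genes (8 genes, at least 5825 CPM). A list of 20 growing-hair genes, 19 of them in the file, split the mice. Its mean log2 CPM was 9.92 to 10.61 in WT PBS and -0.48 to 3.77 in WT BLM. In KO PBS it was 10.57 in mouse 136 but -0.80 and 2.31 in mice 137 and 139, and in KO BLM it was 9.45 in mouse 141 and 5.42 and 6.46 in mice 143 and 144. In the wild type mice this hair difference and the treatment cannot be told apart, and the mice are therefore named by number where it matters. Because whole skin was sequenced, fewer cells of a type and less RNA per cell cannot be told apart, and the p-values measure the spread between these mice.

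Il1b was low in every PBS skin and higher in every bleomycin skin. It was at 1.86, 1.55 and 1.63 CPM in WT PBS and 5.87, 6.20 and 10.9 CPM in WT BLM. In knockout skin it was at 1.7, 0.89 and 1.55 CPM with PBS and at 3.03, 11.7 and 16.9 CPM with bleomycin, and the lowest of these was mouse 141. No bleomycin value overlapped a PBS value in either genotype. The log2 fold change was 2.19 ± 0.54 (SE, n = 3 per group, 4.55-fold) in wild type, with an adjusted p of 0.0155 in edgeR's quasi-likelihood test with Benjamini-Hochberg adjustment over 18311 genes. In the knockout mice it was 2.93 ± 0.55 with an adjusted p of 0.0553, just short of the 0.05 threshold. Without mouse 159, 160, 161 or 147 in turn, the adjusted p in wild type lay between 0.0503 and 0.0593. Without KO BLM mouse 141, the knockout response was 3.37 with an adjusted p of 0.00737, in a fit where 6.19% of all genes passed.

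Il1a, the IL-1 that keratinocytes store, had overlapping groups. It was at 4.67, 7.27 and 7.31 CPM in WT PBS and 13.2, 5.48 and 13.8 CPM in WT BLM, where mouse 146 lay inside the PBS range. In knockout skin the values were 6.55, 8.89 and 7.21 CPM with PBS and 8.54, 15.3 and 12.1 CPM with bleomycin. The log2 fold change was 0.75 ± 0.35 in wild type (adjusted p = 0.115) and 0.66 ± 0.35 in knockout mice (adjusted p = 0.308). Without mouse 146 the wild type value was 1.07 with an adjusted p of 0.0309, so that 1 library decided this call.

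Il1rn, which encodes the IL-1 receptor antagonist, was the member with the most reads in every mouse but 146, and it had overlapping groups. In WT BLM mouse 146 Il33 had 1460 counts and Il1rn 1341. Its counts were 1800 to 2829 in WT PBS, 1341 to 2916 in WT BLM, 1727 to 2056 in KO PBS and 1966 to 2939 in KO BLM. The CPM means were 66.5 ± 5.6, 73.2 ± 26.7, 58.5 ± 8.79 and 83.8 ± 22.1 (SD, n = 3) in the same order. The log2 fold change under bleomycin was 0.14 ± 0.27 in wild type (adjusted p = 0.711; KO response 0.52 ± 0.27, adjusted p = 0.309).

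The ratio of Il1rn to Il1b counts is given as a description, since both genes stand above with their own tests. It was 32.7, 43 and 44.2 in WT PBS against 13.7, 7.06 and 8.81 in WT BLM. In knockout skin it was 40.3, 62.8 and 33.2 with PBS and 19.9, 7.49 and 6.16 with bleomycin. Every bleomycin mouse had a lower ratio than every PBS mouse. Set against Il1a and Il1b together, Il1rn stood at a ratio of 7.55 to 9.33 in WT PBS, 3.75 to 4.2 in WT BLM, 5.69 to 8.29 in KO PBS and 3.24 to 5.20 in KO BLM. The ratio of Il1a to Il1b was 2.51 to 10 in the PBS mice. In WT BLM it was 2.25, 0.884 and 1.27, and in KO BLM it was 2.82, 1.31 and 0.715, where mouse 141 lay inside the PBS range.

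**Figure D1:**
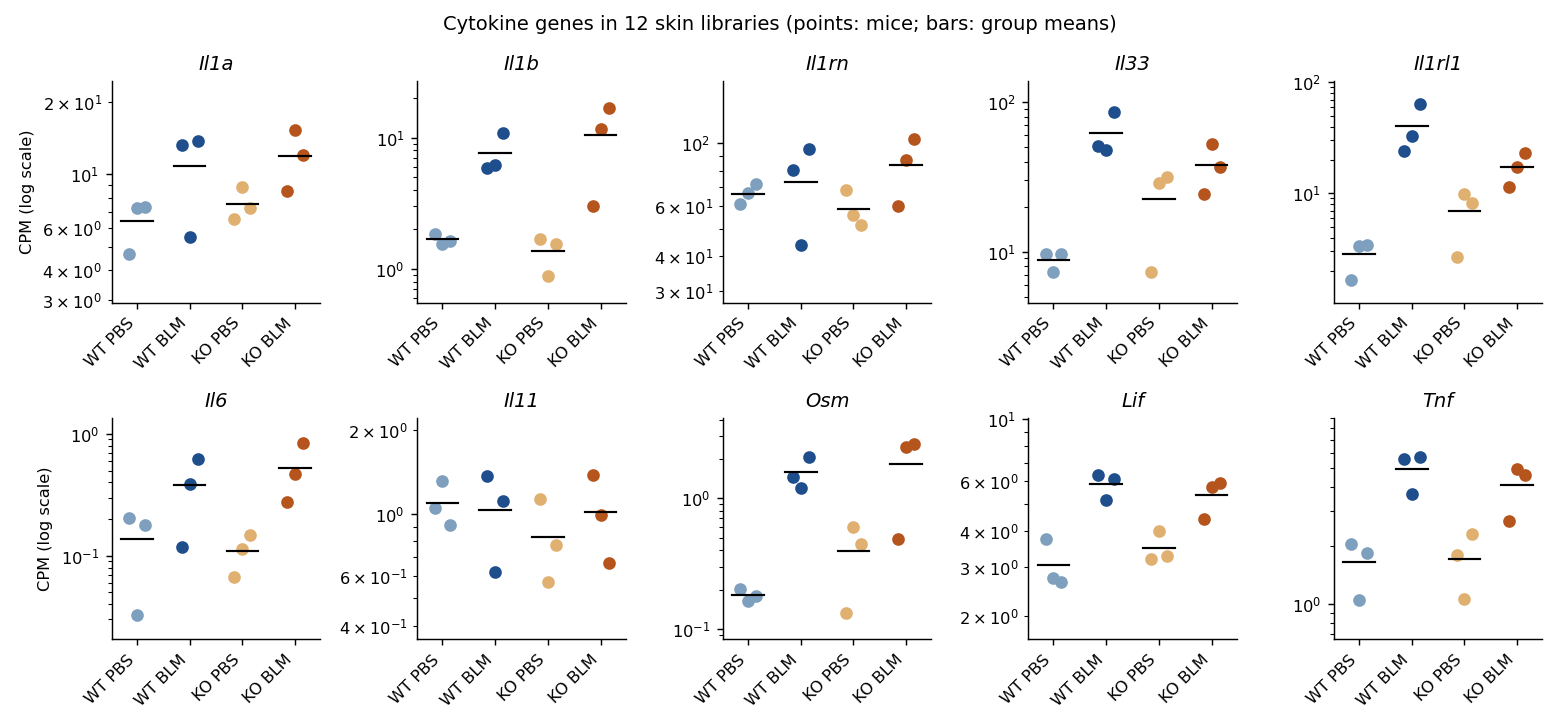
CPM of each cytokine gene (log axis, 1 point per mouse, bar at the group mean) in the 4 groups. Il1b, Il1rl1, Lif and Tnf were higher in all 6 bleomycin mice than in all 6 PBS mice, while the groups of Il1a, Il1rn and Il11 overlapped.

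Il33 and Il1rl1, the ligand and the receptor of the ST2 system, had the largest differences between the genotypes' responses among the members. IL-33 is a nuclear alarmin of keratinocytes, fibroblasts and endothelium. Il33 was at 9.57, 7.27 and 9.60 CPM in WT PBS and at 51.0, 47.6 and 86.6 CPM in WT BLM. In KO PBS mouse 136 had 7.28 CPM while mice 137 and 139 had 28.8 and 31.5 CPM. With bleomycin the knockout mice had 24.4, 52.7 and 37.1 CPM. Mouse 136 thus lay at the wild type PBS level, the other KO PBS mice lay between the wild type groups, and the lowest KO BLM mouse was 141.

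ST2 is carried by mast cells, type 2 lymphoid cells, regulatory T cells and activated macrophages. Il1rl1 was at 1.66, 3.39 and 3.41 CPM in WT PBS and 24.0, 33.1 and 64.3 CPM in WT BLM. In KO PBS it was at 2.66 CPM in mouse 136 and at 9.89 and 8.28 CPM in mice 137 and 139, and in KO BLM at 11.4, 17.5 and 23.0 CPM. The KO PBS mice again divided as they did for Il33. All KO BLM mice lay above all KO PBS mice and below all WT BLM mice.

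In wild type skin Il1rl1 rose by 3.84 ± 0.57 on the log2 scale (14.3-fold, adjusted p = 0.0041) and Il33 by 2.81 ± 0.51 (7-fold, adjusted p = 0.00608). In knockout skin the difference was 1.31 ± 0.52 for Il1rl1 (adjusted p = 0.2) and 0.75 ± 0.48 for Il33 (adjusted p = 0.387). The test of the difference between the genotypes, the knockout response minus the wild type response, gave -2.53 for Il1rl1 (95% interval -4.15 to -0.90, adjusted p = 0.0784) and -2.05 for Il33 (-3.56 to -0.55, adjusted p = 0.0946). Neither passed the threshold in edgeR, and both passed in DESeq2, with adjusted p-values of 0.0104 and 0.0263. Without KO PBS mouse 136 both also passed in edgeR, at -2.91 (adjusted p = 0.0047) and -2.47 (adjusted p = 0.00231). The share of all genes that passed was 17.8% in DESeq2 and 39.9% without mouse 136. With the growing-hair mean as a covariate the differences were -0.34 for Il1rl1 (adjusted p = 0.926) and 0.51 for Il33 (adjusted p = 0.817).

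**Figure D2:**
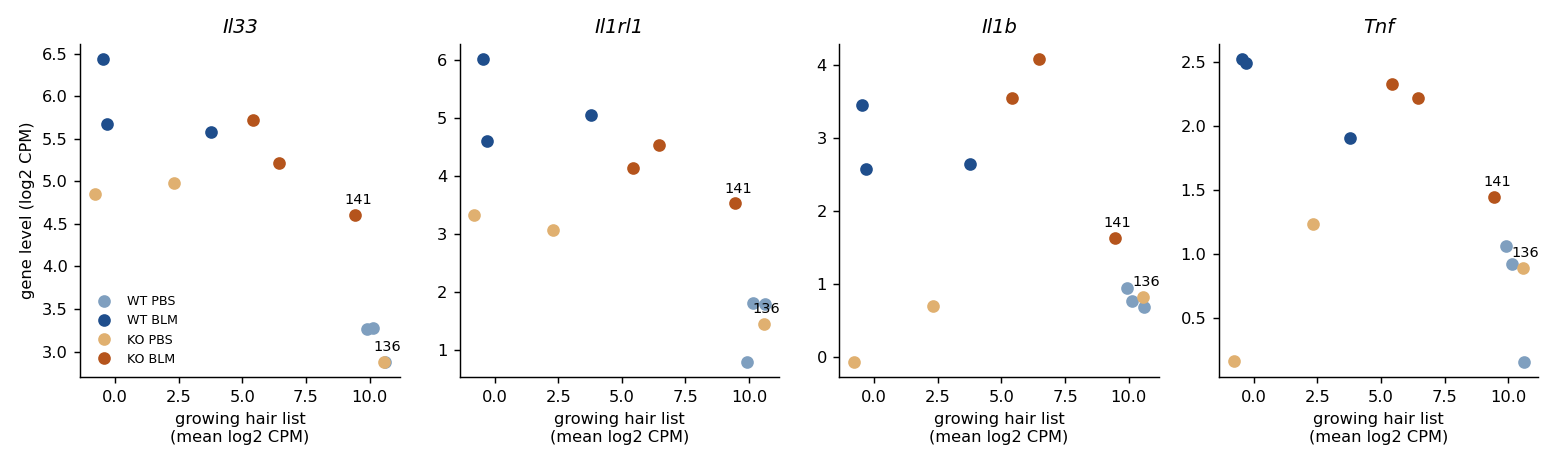
Log2 CPM of Il33, Il1rl1, Il1b and Tnf against the mean log2 CPM of the growing-hair list, 1 point per mouse, with KO PBS mouse 136 and KO BLM mouse 141 labelled. The 3 WT PBS mice and mouse 136 share the highest hair values, 9.92 to 10.61, and the lowest Il33 values, while no WT BLM mouse has a hair value above 3.77.

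Tnf, the macrophage cytokine that activates endothelium, was higher in every bleomycin mouse. It was at 2.03, 1.05 and 1.83 CPM in WT PBS and 5.56, 3.68 and 5.68 CPM in WT BLM. In knockout skin it was at 1.80, 1.06 and 2.29 CPM with PBS and 2.66, 4.96 and 4.6 CPM with bleomycin. The groups did not overlap in either genotype, and mouse 141 was again the lowest of KO BLM. Tnf rose by 1.6 ± 0.38 on the log2 scale in wild type (3.03-fold, adjusted p = 0.0133). The knockout response was 1.25 ± 0.37 with an adjusted p of 0.144. Without WT PBS mouse 160 the wild type value was 1.29 with an adjusted p of 0.0573.

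Osm, a cytokine of neutrophils, macrophages and T cells that acts on fibroblasts and keratinocytes, had few reads in WT PBS. Its counts were 6, 5 and 7 in WT PBS, 37, 37 and 63 in WT BLM, 4, 21 and 15 in KO PBS and 16, 79 and 73 in KO BLM. The wild type groups stood apart, whereas KO BLM mouse 141 (0.49 CPM) lay inside the KO PBS range of 0.13 to 0.60 CPM. The wild type difference was 3.09 ± 0.68 on the log2 scale (8.51-fold, adjusted p = 0.0107). Osm reached the filter on low counts, 0.318 CPM in at least 3 mice, in 2 of 6 PBS mice and 6 of 6 bleomycin mice, so it was tested because of the bleomycin mice and its higher values there were a condition of the test. The knockout response was 2.20 ± 0.62 (adjusted p = 0.134), and without mouse 141 it was 2.64 with an adjusted p of 0.0245.

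Lif, which signals through its own receptor and gp130, was higher in every bleomycin mouse. It was at 3.75, 2.73 and 2.65 CPM in WT PBS and 6.30, 5.15 and 6.10 CPM in WT BLM. Knockout skin had 3.19, 4 and 3.28 CPM with PBS and 4.41, 5.74 and 5.94 CPM with bleomycin. No groups overlapped between the treatments. Lif rose by 0.94 ± 0.21 on the log2 scale in wild type (1.92-fold, adjusted p = 0.0115). In the knockout mice the value was 0.62 ± 0.21 with an adjusted p of 0.166. Without WT PBS mouse 160 the wild type adjusted p was 0.0561.

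Il6 and Il11 were scarce. Il6 had 6, 1 and 7 counts in WT PBS, 3, 12 and 19 in WT BLM, 2, 4 and 5 in KO PBS and 9, 15 and 24 in KO BLM, and it reached the filter in 0 of 6 PBS mice and 4 of 6 bleomycin mice, so that it was tested because of the latter. Its knockout groups did not overlap and its wild type groups did. The log2 fold change of Il6 was 1.43 ± 0.70 in wild type (adjusted p = 0.132) and 2.21 ± 0.71 in knockout mice (adjusted p = 0.159). Il11, a stromal cytokine of fibrosis, had 31, 40 and 36 counts in WT PBS, 35, 19 and 34 in WT BLM, 34, 20 and 26 in KO PBS and 45, 32 and 19 in KO BLM. Its values were -0.08 ± 0.38 in wild type (adjusted p = 0.884) and 0.30 ± 0.39 in knockout mice (adjusted p = 0.68), with every group overlapping.

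Of the 10 members, 6 were higher past the threshold under bleomycin in wild type skin (Il1b, Il33, Il1rl1, Osm, Lif and Tnf) and none was lower. Of the 8 that met the filter through their PBS mice, without Osm and Il6, 5 rose. Over all 18311 genes tested, 19.8% rose and 14.1% fell in that comparison. The same 6 members had groups that did not overlap, with bleomycin higher, as did 28.3% of all genes. The median log2 fold change was 1.51 over the members, 1.27 over the 8 and 0.02 over all genes. With the growing-hair mean as a covariate, 0 members passed in wild type, and 0.0655% of all genes did. The wild type groups did not overlap in hair values, so the covariate cannot separate hair from treatment there. The wild type values under the covariate were 2.06 for Il1b (adjusted p = 0.437) and 1.40 for Tnf (adjusted p = 0.449). They were 2.32 for Il1rl1 (adjusted p = 0.17), 1.01 for Il33 (0.351), 0.93 for Osm (0.764) and 0.59 for Lif (0.538).

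In knockout skin 0 members passed in edgeR, while 0.306% of all genes passed. An unadjusted p under 0.05 was found for 6 members and for 3665 of all 18311 genes. DESeq2 called 3 members (Il1b, Osm and Tnf) and 5.95% of the genes it tested. The members' log2 values ran from 0.30 to 2.93, with a median of 1 against -0.01 over all genes. Groups did not overlap, with bleomycin higher, for 5 members (Il1b, Il1rl1, Il6, Lif and Tnf) and for 10.8% of all genes. With the growing-hair mean as a covariate, 4 members (Il1b, Il1rl1, Il33 and Osm) passed in knockout skin, as did 8.79% of all genes. Without mice 136 and 141 together 3 members passed (Il1b, Osm and Tnf) with 22.3% of all genes.

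Averaged over the genotypes, 7 members were higher past the threshold under bleomycin, 6 mice against 6, and none was lower. This is 5 of 8 without Osm and Il6, which were tested because of their bleomycin mice. The 7 were Il1b (2.56 ± 0.38, adjusted p = 0.00305), Il1rl1 (2.58 ± 0.38, adjusted p = 0.00283), Osm (2.64 ± 0.46, adjusted p = 0.00567), Il33 (1.78 ± 0.35, adjusted p = 0.00807), Il6 (1.82 ± 0.50, adjusted p = 0.0291), Tnf (1.42 ± 0.26, adjusted p = 0.00712) and Lif (0.78 ± 0.15, adjusted p = 0.00776). Among all genes 14.7% rose and 8.17% fell. For 4 members (Il1b, Il1rl1, Lif and Tnf) all 6 bleomycin mice lay above all 6 PBS mice, as for 4.15% of all genes. The call of Il6 was lost when any of mice 159, 160, 161, 147, 143 or 144 was left out, with adjusted p-values of 0.0512 to 0.0789. Il1a (0.71 ± 0.25, adjusted p = 0.0609), Il1rn (0.33 ± 0.19, adjusted p = 0.221) and Il11 (0.11 ± 0.27, adjusted p = 0.783) did not pass.

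The responses of the 2 genotypes were compared directly for each member. None passed the threshold in edgeR, where 0% of all genes passed. An unadjusted p under 0.05 was found for 2 members (Il1rl1 and Il33) and for 5687 of all 18311 genes. The interval of the difference reached from -0.88 to 2.37 for Il1b, from -1.51 to 0.80 for Tnf, from -2.88 to 1.10 for Osm and from -0.98 to 0.33 for Lif. Each of these intervals covers 0 and responses larger in either genotype. For Il1a the difference was -0.09 (-1.18 to 1), for Il1rn 0.38 (-0.47 to 1.24), for Il6 0.78 (-1.46 to 3.02) and for Il11 0.38 (-0.82 to 1.59).

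**Figure D3:**
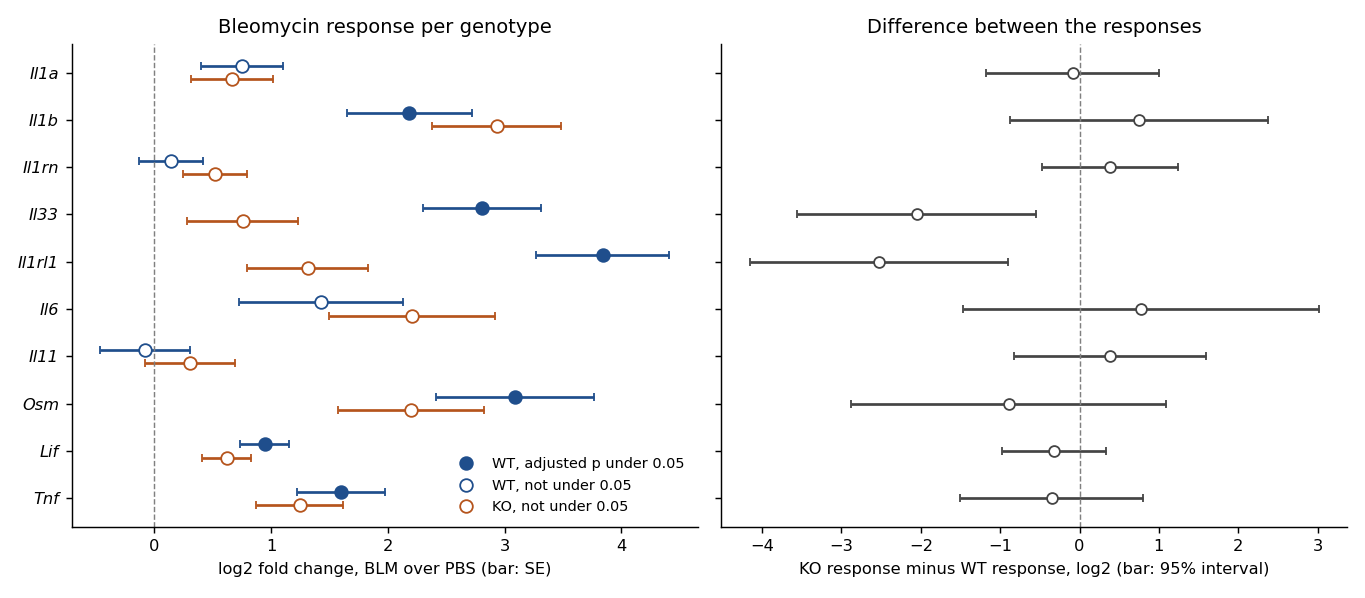
Left, log2 fold change of each member under bleomycin in wild type (blue) and knockout (orange) skin with its SE, filled where the adjusted p was under 0.05. Right, knockout response minus wild type response with its 95% interval; the intervals of Il33 and Il1rl1 lie below 0, at -2.05 and -2.53, and the other 8 cross it.

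Between the genotypes under PBS, 0 members passed in edgeR or DESeq2, against 0.0655% of all genes in edgeR and 3.69% of those DESeq2 tested. Il33 (1.35 ± 0.49, adjusted p = 0.209) and Il1rl1 (1.30 ± 0.53, adjusted p = 0.227) had an unadjusted p under 0.05 in edgeR, as did 3727 of all 18311 genes. No member had groups that did not overlap, against 18.9% of all genes. Without mouse 136, the KO PBS mouse with wild type hair values, Il33 was 1.77 higher in knockout skin (adjusted p = 0.00365) and Il1rl1 1.68 higher (adjusted p = 0.0171), and 36.7% of all genes passed in that fit. These comparisons share the WT PBS mice with the wild type response above. With the growing-hair mean as a covariate the values were -0.07 for Il33 and 0.08 for Il1rl1.

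Under bleomycin, 0 members differed between the genotypes in edgeR or DESeq2, against 0.0928% of all genes in edgeR and 2.99% of those DESeq2 tested. Il1rl1 was 1.23 lower in the knockout mice on the log2 scale, at -1.23 ± 0.51 (adjusted p = 0.284), the only member with an unadjusted p under 0.05 and the only one whose groups did not overlap. Groups did not overlap for 27.5% of all genes, and 3043 of all 18311 genes had an unadjusted p under 0.05. Il33 stood at -0.70 ± 0.48 (adjusted p = 0.451), and Il1b at 0.46 ± 0.51 (adjusted p = 0.64). Averaged over the treatments, 0 members passed by either tool, against 0.158% of all genes in edgeR and 0.722% of those DESeq2 tested. In edgeR 0 members had an unadjusted p under 0.05, against 1017 of all 18311 genes. The values ran from -0.21 for Il11 to 0.67 for Osm.

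The order of the members was taken on CPM per kb of exon, since their exonic lengths ran from 1.64 kb for Tnf to 6.89 kb for Il1rl1. In WT PBS Il1rn led at 12 ± 1.01 CPM per kb (SD, n = 3), followed by Il1a at 3.25 ± 0.77 and Il33 at 3.05 ± 0.46, whose ranges overlapped. Tnf, Il1b, Lif, Il11 and Il1rl1 followed at 1 to 0.409 CPM per kb, each overlapping the next, and Osm (0.0801) and Il6 (0.0568) were last. In WT BLM Il33 stood first at 21.4 ± 7.48 CPM per kb and Il1rl1, at rank 8 in WT PBS, stood at rank 3 with 5.87 ± 3.07, although the first 6 members each overlapped their neighbour.

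Il1rn was first again in the knockout groups. In KO PBS it was at 10.6 ± 1.59 CPM per kb, overlapping Il33 at 7.81 ± 4.6. In KO BLM it was at 15.1 ± 3.99, overlapping Il33 at 13.2 ± 4.92, and Il1a (6.06) overlapped Il1b (5.52). Il6 was last in all 4 groups, and in 3 of them its range overlapped that of the member before it. Within the counts of the 10 members, Il1rn alone made up 70.9% to 72.9% in WT PBS, 29.7% to 42.4% in WT BLM, 48.1% to 73.6% in KO PBS and 43.9% to 51.5% in KO BLM.

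**Figure D4:**
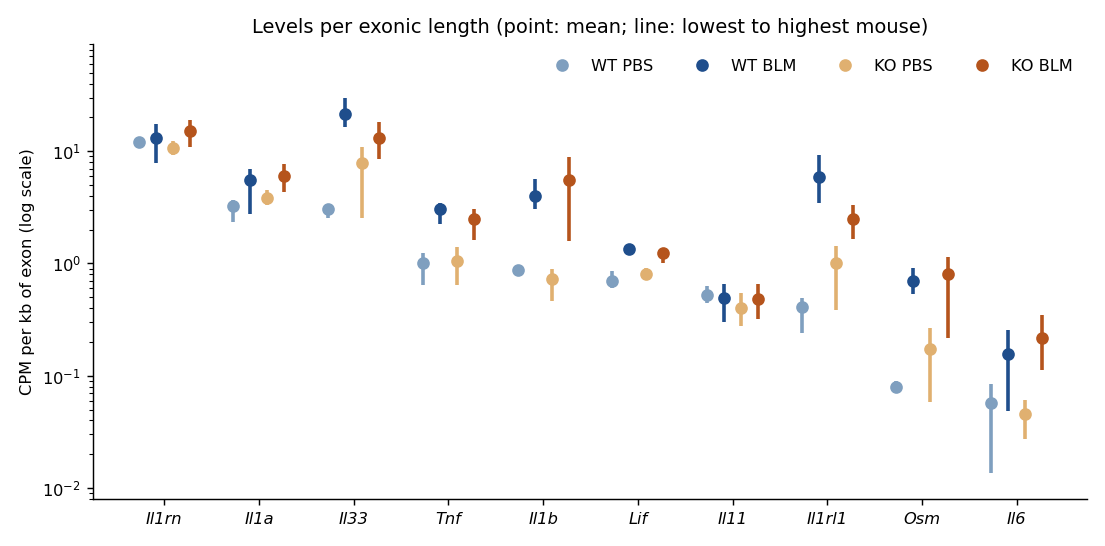
Mean CPM per kb of exon (log axis) of each member in the 4 groups, with a line from the lowest to the highest mouse. Il1rn is highest in 3 groups, Il33 is highest in WT BLM at 21.4, and Il6 is lowest in all 4.

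The receptors, partners and targets of these cytokines were read from lists of 93 entries, of which 89 names were in the file and 82 genes were tested. In wild type skin 41 were higher and 3 lower past the threshold under bleomycin, or 39 and 3 of the 78 that met the filter through their PBS mice, against the 19.8% and 14.1% of all genes given above. In knockout skin 1 gene passed, against 0.306% of all genes, the protease inhibitor Timp1 (3.30 ± 0.42, adjusted p = 0.0305). Its knockout call was lost without mouse 159, 160, 161, 139, 143 or 144 in turn (adjusted p of 0.059 to 0.146) and in a fit of the knockout groups alone (adjusted p = 0.271). The median log2 fold change was 0.78 in wild type and 0.25 in knockout skin. Between the genotypes no listed gene passed in edgeR. DESeq2 called 3 under PBS, 4 under bleomycin and 1 averaged over the treatments, where 3.69%, 2.99% and 0.722% of all genes passed. The difference between the responses passed for none in edgeR and for 17 in DESeq2, which called 17.8% of the genes it tested.

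Of 13 receptors tested, 5 rose and 2 fell in wild type skin, where 19.8% of all genes rose and 14.1% fell. Tnfrsf1b, the TNF receptor of leukocytes, rose by 2.13 ± 0.32 (adjusted p = 0.0041), from 20.7 ± 4.40 to 90.5 ± 17.8 CPM. Il6ra rose by 1.19 ± 0.39 (adjusted p = 0.0394), Lifr by 1 ± 0.34 (adjusted p = 0.0443) and Osmr by 0.84 ± 0.15 (adjusted p = 0.00561). The Il6ra call was kept in 4 of 12 fits that left out 1 mouse, those without 146, 136, 137 or 139 (adjusted p up to 0.123 in the others). The Lifr call was kept in 2 of 12, those without 136 or 137 (up to 0.139), and was lost with no filter on low counts (adjusted p = 0.057). The receptor subunits of IL-11 and of ciliary neurotrophic factor were the pair that fell. Il11ra1 was at -1.16 ± 0.22 (adjusted p = 0.00714) and Cntfr at -2.82 ± 0.58 (adjusted p = 0.00873), from 74.6 ± 5.93 to 10.6 ± 4.53 CPM. The signalling IL-1 receptor Il1r1 (-0.27 ± 0.15, adjusted p = 0.192), its decoy Il1r2 (0.12 ± 0.35, adjusted p = 0.806), the accessory chain Il1rap (0.55 ± 0.22, adjusted p = 0.0716), gp130 (Il6st, 0.55 ± 0.22, adjusted p = 0.0756) and Tnfrsf1a (0.31 ± 0.14, adjusted p = 0.111) did not pass.

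Of 7 other genes listed with the IL-1 family, 6 rose in wild type skin, against 19.8% of all genes. One of the 6, Il18bp, encodes a soluble protein that binds IL-18 and is not a family ligand. The IL-36 genes of keratinocytes were among the others. Il1f6 rose by 3.6 (adjusted p = 0.0282), Il1f9 by 2.50 (adjusted p = 0.0225) and Il1f8 by 2.18 (adjusted p = 0.0259). Leaving out mouse 159, 160, 161 or 147 took each adjusted p above 0.05, as did leaving out 145 for Il1f8, with adjusted p-values up to 0.0912. Under the hair covariate the 3 stood at -0.79, -0.014 and 0.063. Of 5 other ligands of the IL-6 and IL-12 type, 1 rose, about the share of all genes. It was Ebi3, a subunit of IL-27, at 2.72 (adjusted p = 0.00764). In knockout skin the same genes stood at 4.11 (Il1f6, adjusted p = 0.119), 1.57 (Il1f9, 0.225), 2.09 (Il1f8, 0.143) and 0.85 (Ebi3, 0.356) under bleomycin.

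Of 6 genes that process these cytokines, 3 rose in wild type skin, where 19.8% of all genes rose and 14.1% fell. These are also the shares for the lists that follow. Mmp9, a gelatinase of neutrophils and macrophages, rose by 4.10 (adjusted p = 0.00917), Casp1, which cleaves pro-IL-1β, by 0.81 (adjusted p = 0.00924), and Adam17, which sheds TNF and the IL-6 receptor, by 0.62 (adjusted p = 0.0128). Of 21 signal transducers 10 rose and 1 fell, with the IL-1 receptor kinase Irak2 at 1.11 (adjusted p = 0.00969) and Stat3 at 1.11 (adjusted p = 0.00793). Of 7 feedback inhibitors 2 rose, Socs3 by 1.21 (adjusted p = 0.0142) and Zc3h12a, an RNase that degrades cytokine mRNA, by 1.14 (adjusted p = 0.0271). Of 23 target genes 14 rose and none fell. They included the neutrophil chemokine Cxcl2 (4.93, adjusted p = 0.0391), Timp1 (4.15, adjusted p = 0.00215) and the adhesion molecule Vcam1 (3.34, adjusted p = 0.00215), which went from 4.69 ± 0.34 to 47.5 ± 1.19 CPM. Cxcl2 reached the filter in 0 of 6 PBS mice, so it was tested because of its bleomycin mice. It was 1 of 4 listed genes that did not meet the filter through PBS mice, and others of the 4 were target genes too. The 39 higher of 78 given above leave these 4 out. The Cxcl2 call was kept in 6 of 12 fits, lost without any 1 of the 6 wild type mice (adjusted p up to 0.109). The calls of Socs3 (without 160 or 161, up to 0.0586), Zc3h12a (without 159, 160, 161, 145 or 147, up to 0.0881) and Adam17 (without 159 or 160, up to 0.0621) were also lost. With the growing-hair mean as a covariate 2 of the listed genes passed in wild type, Timp1 at 2.91 (adjusted p = 0.0487) and Vcam1 at 2.37 (adjusted p = 0.0404), and 23 in knockout skin. Of all genes 0.0655% and 8.79% passed in those comparisons.

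**Figure D5:**
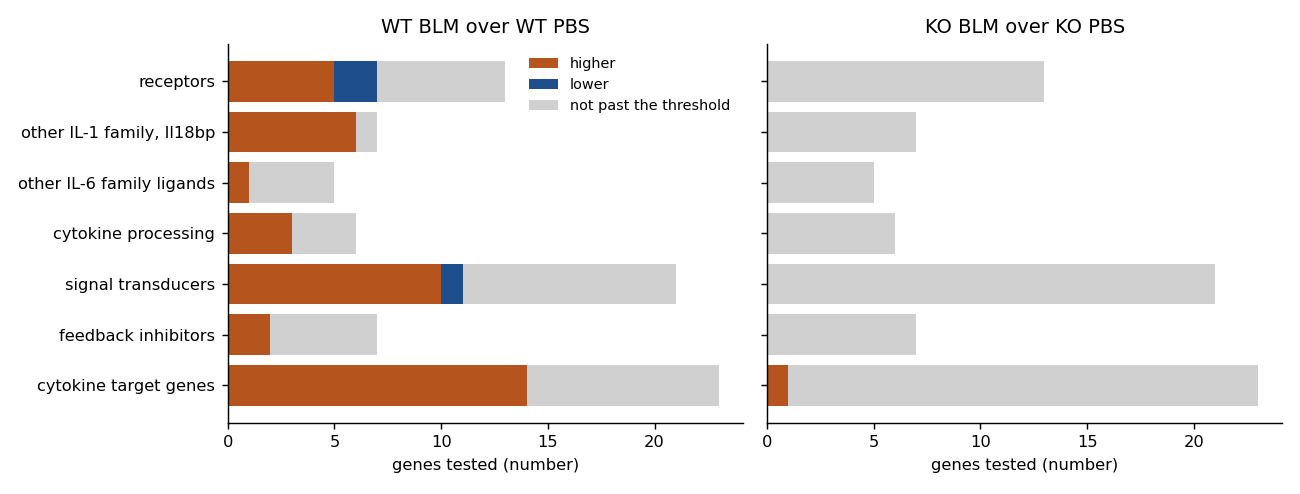
Number of tested genes in each list that were higher (orange), lower (blue) or not past the threshold (grey) under bleomycin in wild type (left) and knockout (right) skin. In wild type 14 of 23 target genes and 6 of 7 genes listed with the IL-1 family were higher, against 19.8% of all genes. In knockout skin the single gene past the threshold was Timp1.

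Marker lists of the cells that make or answer these cytokines were read in the same groups. In wild type skin 19.8% of all genes rose and 14.1% fell under bleomycin, and in knockout skin 0.306% passed. The summed CPM of 10 macrophage genes was 433.1 to 1008 in WT PBS and 2447 to 3548 in WT BLM, and 455.8 to 2214 in KO PBS and 1653 to 2328 in KO BLM, with 9 of 10 higher in wild type and 0 past the threshold in knockout skin. The 8 neutrophil genes summed to 10.39 to 15.59 in WT PBS and 66.55 to 460.2 in WT BLM, with 4 of 6 tested higher and 1 lower. Among the higher ones, Retnlg was at 0.10 to 0.23 CPM in WT PBS and 0.51 to 1.30 in WT BLM, with a mean of 0.20 in KO PBS. It met the filter of 0.318 CPM in at least 3 mice only through bleomycin mice. Camp was near that floor too, at 0.30 to 0.38 CPM in WT PBS. Most of the WT BLM sum was S100a8 and S100a9, at means of 65.7 and 109.6 CPM, with Csf3r at 20.2 and Cxcr2 at 9.86. In KO BLM the 8 genes summed to 20.35 to 297.8, against 10.09 to 24.43 in KO PBS. The 8 T cell genes summed to 20.63 to 23.43 in WT PBS and 57.42 to 84.92 in WT BLM (7 of 8 higher), and to 20.77 to 53.99 in KO PBS and 59.04 to 110.9 in KO BLM. No marker in these 3 lists was at 0 in every mouse, but Ly6g reached at most 0.065 CPM in any mouse, Camp 0.38 and Ngp 0.69.

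Fibroblasts and endothelium, named above as sources of IL-33, were read in the same way, against the 19.8% of all genes that rose in wild type skin. The 8 fibroblast genes summed to 6185 to 8467 CPM in WT PBS and 12400 to 39560 in WT BLM (5 of 8 higher), and to 5825 to 18710 in KO PBS and 9381 to 25290 in KO BLM. The 6 endothelial genes summed to 155.6 to 169.7 in WT PBS and 182.3 to 468.1 in WT BLM (4 of 6 higher), and to 140.8 to 290.7 in KO PBS and 223 to 249.5 in KO BLM.

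Keratinocytes, mast cells and muscle had lists of their own, read against the 19.8% of all genes that rose in wild type skin and the 14.1% that fell. The 6 stressed keratinocyte genes summed to 2720 to 3503 CPM in WT PBS, 1705 to 5675 in WT BLM, 1124 to 4386 in KO PBS and 2651 to 7561 in KO BLM, and 3 rose and 1 fell in wild type. In WT PBS most of that sum was Krt17, whose mean was 2626 CPM there and 1131 in WT BLM. The means of the other listed genes were higher in WT BLM, as for Krt6b (0.36 to 501.1), Krt16 (36.1 to 718.3) and Sprr2d (0.12 to 33.2). Sprr2d, at most 0.20 CPM in WT PBS and 0.33 in KO PBS, met the filter of 0.318 CPM in at least 3 mice only through bleomycin mice. The 7 mast cell genes summed to 124.8 to 143.4 in WT PBS and 81.08 to 249.9 in WT BLM, and to 139.3 to 246.3 in KO PBS and 213.3 to 438.9 in KO BLM. In wild type 2 were higher and 1 lower, which is near the shares of all genes. Kit was the only one with a lower mean in WT BLM, at 19.4 CPM against 63.5 in WT PBS. The 8 skeletal muscle genes summed to 4760 to 5330 in WT PBS and 16460 to 33200 in WT BLM, with 7 of 8 higher, and to 6012 to 24160 in KO PBS and 9560 to 18380 in KO BLM. The part of these cells in the members' values was not tested.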

How the data were processed

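RNA of 12 skin samples was sequenced by the authors from TruSeq stranded libraries on an Illumina NextSeq. The authors deposited raw counts per gene for each mouse, which are whole-number counts with no normalization. The submitters' processing notes name GRCm38.p6 and MultiQC 1.7. The aligner, the counting tool and its strand setting are not given in the sources used here. Samples were grouped by their labels, and columns were matched to mice by mouse number, with 0 columns left over.

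Counts were filtered with filterByExpr (minimum count 10, minimum total 15), which kept 18311 of 34689 genes with any count and all 10 members, scaled by TMM and fitted with edgeR 4.0.16 (R 4.3.3) as 4 group means over all 12 mice. The quasi-likelihood test was applied to 7 contrasts, p-values were adjusted by the Benjamini-Hochberg method across the 18311 genes, and 0.05 was the threshold. Standard errors are the log2 fold change divided by the square root of F. The common biological coefficient of variation was 34.9%. CPM values used TMM-scaled totals, and log2 CPM a prior count of 2. CPM per kb used the union of exons in GENCODE M21. The fit was tested on simulated data. No 2 libraries were copies of each other (highest correlation between mice over the genes tested, 0.9891).

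The 10 members, the pathway lists and the marker lists were chosen with earlier results of these data known. Named pathway genes were the 3 past the threshold with the largest absolute log2 fold change in each list and comparison, plus the receptors of the members; 1 gene that this rule names is not reported here. Of the 93 pathway entries, 4 IL-36 genes were listed under both older and newer symbols, so each is counted once. The 3 genes most alike each member were those with the highest Pearson r of log2 CPM over 12 mice. Alternatives were DESeq2 1.42.0, other normalizations and filters, fits of only the 2 groups compared, a growing-hair covariate, and leaving out mice.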

Additional observations from a re-analysis of the deposited data

How the results depend on the processing

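No paired analysis was possible because every mouse carried its own number and no number was shared between groups. Among the members' log2 fold changes over all alternatives, 1230 kept their direction and side of the threshold, 30 passed only under the alternative, 19 passed only as reported and 66 changed sign, none of the last past the threshold. Upper-quartile and RLE normalization left the counts of members called within 1.5 times. Members with a low mean had no value under a minimum mean of 1 CPM. Members called (6 in wild type, 7 averaged over genotypes and 0 in each other comparison) moved as follows. In the knockout response DESeq2 called 3, no filter on low counts 1, the hair covariate 4, and leaving out mice 136 and 141 together 3. The shares of all genes that passed in these fits were 5.95%, 0.507%, 8.79% and 22.3%. In wild type the hair covariate left 0, where 0.0655% of all genes passed. Under it Il1b was at 2.06 (adjusted p = 0.437 in edgeR) and Tnf at 1.40 (adjusted p = 0.449), against 2.19 and 1.6 as reported. For the difference between responses DESeq2 called 2 and leaving out both mice 2, where 17.8% and 38.6% of all genes passed. Between genotypes leaving out both mice gave 3 under PBS and 1 (Osm) averaged over treatments, where 40.9% and 11.3% of all genes passed. Leaving out 1 mouse in turn gave 3 to 7 members in wild type (3 without mouse 160), 0 to 2 in knockout, 0 to 2 between genotypes under PBS, 0 to 0 under bleomycin, 0 to 2 for the difference between responses, 6 to 8 for the average of bleomycin and 0 to 0 for that of genotype. In the same order the share of all genes that passed ran from 13.9% to 45.7%, 0% to 14%, 0.032% to 36.7% and 0.0267% to 6.89%. For the last 3 it ran from 0% to 39.9%, 10.7% to 32.2% and 0.0854% to 1.25%. Pathway genes called (44 in wild type, 1 in knockout, 36 averaged, 0 elsewhere) became, with DESeq2, 17 in knockout, 3 and 4 between genotypes under PBS and bleomycin, 1 averaged over treatments and 17 for the difference between responses. In the same order DESeq2 called 5.95%, 3.69%, 2.99%, 0.722% and 17.8% of the genes it tested. No filter gave 4 in knockout and a fit of the 2 groups alone 0, where 0.507% and 0% of all genes passed. The hair covariate gave 2 in wild type and 23 in knockout, where 0.0655% and 8.79% of all genes passed. Leaving out both mice gave 54 in wild type, 26 in knockout, 37 and 5 between genotypes under PBS and bleomycin, 10 averaged over treatments and 32 for the difference between responses. The shares of all genes that passed were 49%, 22.3%, 40.9%, 4.36%, 11.3% and 38.6% in the same order. Leaving out 1 mouse gave 16 to 53 in wild type, 0 to 18 in knockout, and 0 to 31 and 0 to 6 between genotypes under PBS and bleomycin. It gave 0 to 32 for the difference between responses and 27 to 45 averaged over genotypes. The shares of all genes in these fits are those given above for the members. The counts of 31 and 32 were without mouse 136, where 36.7% and 39.9% of all genes passed. The cause of these moves was not tested.

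Changes of sign in the log2 fold change were as follows. Under the hair covariate the wild type response was -0.029 for Il1a, -0.021 for Il1rn, 0.46 for Il11, -0.37 for Cxcl2, -0.79 for Il1f6, -0.014 for Il1f9, -0.21 for Il6ra, -0.99 for Il1r2 and -0.0076 for Lifr. Under it, knockout against wild type under PBS was -0.26 for Il1a, -0.068 for Il33, -0.64 for Osm, -0.043 for Lif and -0.055 for Tnf, under bleomycin 0.44 for Il33 and 0.11 for Lif, and averaged over treatments -0.088 for Il1rl1. Under it the difference between responses was 0.91 for Il1a, 0.51 for Il33, -0.30 for Il11, 2.15 for Osm and 0.15 for Lif. Without a filter Il11 was at 0.0031 between genotypes under bleomycin, and without both mice the difference between responses was 0.018 for Il1a. With 1 mouse left out the wild type response ran from -0.33 to 0.19 for Il11, -0.10 to 0.40 for Il1rn and -0.20 to 0.38 for Il1r2, and the average bleomycin response of Il11 from -0.032 to 0.25. The difference between responses of Il1a ran from -0.41 to 0.12. Knockout against wild type under PBS ran from -0.77 to 0.030 for Il6 and -0.20 to 0.32 for Tnf. Under bleomycin it ran from -0.29 to 0.23 for Il11, -0.17 to 0.37 for Il1a, -0.056 to 0.93 for Il1b, -0.070 to 0.44 for Il1rn, -0.043 to 1.01 for Il6, -0.21 to 0.032 for Lif and -0.10 to 0.71 for Osm. Averaged over treatments it ran from -0.17 to 0.34 for Il1b, -0.14 to 0.29 for Il1rl1, -0.13 to 0.13 for Il1rn, -0.18 to 0.35 for Il6, -0.018 to 0.15 for Lif and -0.25 to 0.037 for Tnf. Depth limited Il6 most, with 1 to 24 counts per mouse.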

Other observations

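The genes whose log2 CPM followed each member most closely over the 12 mice are given as a description, since the mice of a group share treatment, genotype and hair values and the 3 genes per member were picked from 18311. Il1b went with the cornified envelope gene Sprr2e (Pearson r = 0.974), the retinol-binding gene Rbp2 (0.971) and AA467197 (0.97). Il1rl1 went with the adaptor Grb2 (0.988), the TNF receptor Tnfrsf1b (0.987) and Cd14, the endotoxin co-receptor of macrophages (0.987). Il33 went with Shisa5 (0.988), Samhd1, a nucleotide hydrolase of myeloid cells (0.985), and Napsa (0.984). Osm went with Higd2a (0.988), Sh3bgrl3 (0.987) and the chemokine Cxcl16 (0.986), and Tnf with Tctex1d4 (0.962), Bvht (0.952) and Enho (0.944).

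The other members had partners of other kinds. Il1a went with Lrrc28 (0.96), Rnf225 (0.955) and Zdhhc9 (0.952). Il1rn went with the glycolipid transfer gene Gltp (0.974), Dpp3 (0.971) and Xpnpep1 (0.969). Lif went with the kallikrein Klk1 (0.973), the slow muscle troponin Tnnt1 (0.966) and Cdkn2d (0.966). Il6, at 1 to 24 counts per mouse, went with Nsmce1 (0.958), Alg5 (0.936) and Wfdc12 (0.929). Il11 had the lowest values, with Zc3h3 (0.829), F2rl1 (0.813) and Tnpo3 (0.803).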
